A study of Mus musculus with 4 samples.

Results

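The signalling genes of the T cell receptor described here are Lat, Themis, Fcer1g, Cd247, Zap70, Syk, Lck, Hcst, Tyrobp and Sh2d1a. They were taken by symbol from the gene lists of the matrices, and each of these 10 genes, of 32285 in all, was found in all 4 samples. The samples were CD45+ (immune) cells sorted from crypts of the small intestine of mice on a cystine diet (2 samples) or on a control diet (2 samples), each sequenced as a 5′ single-cell library of the 10x Genomics type. Group membership came from the sample titles, since the treatment field of all 4 samples reads Control. The labels give no strain, age or time on diet, their genotype field reads Male, and they do not say whether the samples came from separate animals, so the p-values below reflect how these samples vary and nothing more, which may be technical variation. The cystine diet is called a high-cysteine diet in the sorting protocol.

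A T cell receptor has no enzyme of its own. Lck phosphorylates the activation motifs (ITAMs) on the signalling chains of the receptor, of which Cd247 (CD3ζ) is the main one, the kinase Zap70 docks on them, and Zap70 in turn phosphorylates the adaptor Lat, from which most later signals start. Themis is an adaptor of developing and mature T cells that acts close to Lck and Lat, and Sh2d1a (SAP) carries signals of SLAM family receptors. Fcer1g (the FcRγ chain) and Tyrobp (DAP12) are ITAM chains of innate receptors, Fcer1g can take the place of Cd247 in the receptors of intraepithelial T cells, Hcst (DAP10) is the adaptor of the NKG2D receptor without an ITAM, and Syk is the relative of Zap70 used by B cells and myeloid cells. In the gut epithelium most T cells are γδ cells or CD8αα αβ cells, called natural, and a smaller part are conventional CD8αβ and CD4 cells.

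The stretches upstream of 4 of these genes are shown because these genes differed between T cell classes in their response to the diet. Each line gives the 250 bases before the annotated start, 5′ to 3′ on the gene's strand, from RefSeq on build GRCm38.p6, matched by symbol; the matrices were made on build GRCm39, per the submitters' processing notes. Windows were found for 8 of the 10 genes (13 windows), not for Tyrobp and Sh2d1a. Capitals mark the ETS core AGGAAG on either strand.

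Fcer1g, chr1:171234350-171234599, minus strand: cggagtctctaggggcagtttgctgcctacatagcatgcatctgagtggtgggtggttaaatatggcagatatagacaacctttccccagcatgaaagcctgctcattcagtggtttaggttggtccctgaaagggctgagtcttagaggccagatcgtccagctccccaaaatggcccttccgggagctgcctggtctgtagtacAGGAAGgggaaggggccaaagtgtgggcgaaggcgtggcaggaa

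Lat, chr7:126369569-126369818, minus strand: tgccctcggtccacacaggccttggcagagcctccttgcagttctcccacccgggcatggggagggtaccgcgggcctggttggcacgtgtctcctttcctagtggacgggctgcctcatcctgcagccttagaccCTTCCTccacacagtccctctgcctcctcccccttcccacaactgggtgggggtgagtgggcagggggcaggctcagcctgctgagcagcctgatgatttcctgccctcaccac

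Hcst, chr7:30419855-30420104, minus strand: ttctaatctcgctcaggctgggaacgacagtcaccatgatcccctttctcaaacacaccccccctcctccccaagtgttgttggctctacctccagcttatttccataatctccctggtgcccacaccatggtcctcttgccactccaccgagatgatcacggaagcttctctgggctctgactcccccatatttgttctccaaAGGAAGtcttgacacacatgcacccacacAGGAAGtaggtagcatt

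Themis, window 1 of 2, chr10:28668110-28668359, plus strand: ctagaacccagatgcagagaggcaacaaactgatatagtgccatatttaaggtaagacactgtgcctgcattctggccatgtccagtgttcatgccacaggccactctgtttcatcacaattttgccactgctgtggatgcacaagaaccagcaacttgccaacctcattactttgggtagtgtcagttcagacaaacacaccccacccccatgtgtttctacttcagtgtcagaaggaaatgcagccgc

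The window of Hcst held 2 ETS cores, those of Fcer1g and Lat 1 each and that of Themis 0, and 29.5% of all 32851 windows of this length held at least 1. The RUNX core TGTGGT, found in 14.0% of windows, and the TCF/LEF core CTTTGA, found in 13.8%, had 0 matches in all 4 windows shown. An E box, CAGNTG, was found once in the windows of Fcer1g, Lat and Themis and not in that of Hcst, against 44.8% of all windows. Both strands were searched and the motifs were counted independently of each other. Hcst and Tyrobp are neighbours, with 0 genes starting between them.

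The files hold 16653 to 19351 cell barcodes in the cystine samples and 15391 to 16865 in the control samples, with 27229695 to 31301936 UMIs (counted molecules) per sample. After filtering, 16317 and 14369 cells of the cystine samples and 14558 and 13481 of the control samples were kept. Cells were put into classes by UMIs of receptor and coreceptor genes, which are none of the 10 genes. A γδ cell carried Trdc and a Cd3 gene but no Trac, Cd4 or Cd8b1 UMI, and a CD8αα αβ cell carried a Cd3 gene, Cd8a and an α or β constant gene but no Cd8b1, Cd4 or Trdc. A CD4 cell carried a Cd3 gene and Cd4 but no CD8 gene or Trdc, a CD3-negative cell carried no Cd3 or receptor constant gene, and a CD8αβ cell carried a Cd3 gene, Cd8a and Cd8b1 but no Trdc or Cd4. Such rules leave out cells in which few UMIs were caught, and 37.7% and 38.7% of kept cells in the cystine samples and 44.4% and 41.3% in the control samples had no class. The γδ class held 2225 and 2361 cells in the cystine samples and 2824 and 2346 in the control samples, and the CD8αα class 4042 and 3528, and 3950 and 4398. The CD8αβ class was larger in the cystine samples, with 1323 and 1297 cells against 554 and 471 in the control samples. CD4 cells were few, 56 and 89 in the cystine samples and 74 and 42 in the control samples, and CD3-negative cells numbered 2525 and 1534, and 692 and 651. Any pair of libraries shared 335 to 454 barcodes, at most 2.69% of the smaller library.

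The class borders were not clean, and this bears on Tyrobp, Fcer1g and Syk. Of the CD8αβ cells, 4.31% and 4.55% in the cystine samples and 4.15% and 2.76% in the control samples also carried at least 2 UMIs of the plasmacytoid dendritic genes Siglech, Klk1 and Cox6a2. These few cells held 55.7% and 72.0% of the CD8αβ class's Tyrobp UMIs in the cystine samples and 55.9% and 45.4% in the control samples. Of the Syk UMIs they held 41.9% to 90.0%, of Fcer1g 8.25% to 29.6% and of Lat at most 1.49%. Their Tyrobp level was 6536 and 7693 CPM (UMIs per 1000000 UMIs of the class and sample) in the cystine samples and 7452 and 7630.0 CPM in the control samples, beside 6521 and 7211 CPM, and 7611 and 5651 CPM, in CD3-negative cells with plasmacytoid dendritic markers. In the CD4 class, 3 and 4 such cells of the cystine samples and 1 each of the control samples held 67.9% to 100% of the Tyrobp UMIs. In the γδ and CD8αα classes such cells held at most 1.01% of the Tyrobp UMIs. Of the few Syk UMIs of γδ cells they held up to 10% in 3 samples and 40% in control replicate 2, and myeloid-marked cells held up to 40% and B-marked cells up to 36.7%. The main results on the 10 genes that involve CD8αβ or CD4 cells are therefore also given without cells carrying at least 2 UMIs of plasmacytoid dendritic, B cell or myeloid marker lists, a step chosen after the data had been seen and called cleaned below. Values of the other pathway genes are over all cells of a class. The borders between T cell classes were not clean either: the summed γ constant genes were at 1135 to 1249 CPM in the class called CD8αα αβ, against 1300 to 1602 CPM in γδ cells and 311 to 785 CPM in CD8αβ cells. The summed β constant genes, which the γδ rule did not bar, were at 461 to 604 CPM in γδ cells. They were at 646 to 819 CPM in CD8αα cells and at 407 to 519 CPM in CD8αβ cells. The γδ and CD8αα classes are named here by their rules, and the part of γ and β constant RNA in the comparisons between T cell classes was not tested.

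**Figure D1:**
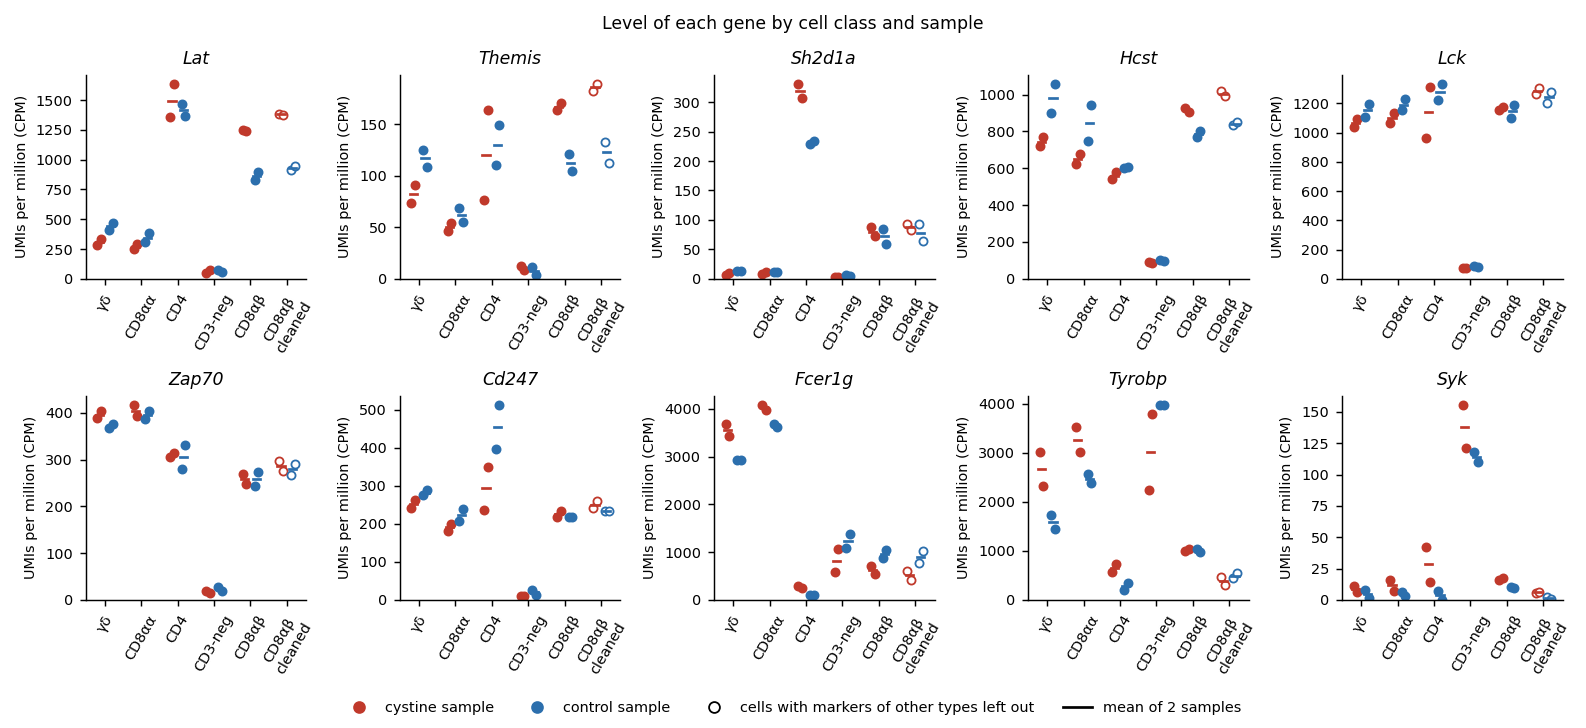
Level of each of the 10 genes, in CPM (UMIs per 1000000, vertical axis from 0), in 5 cell classes and in cleaned CD8αβ cells (open points); each point is 1 sample and each bar the mean of 2 samples. Fcer1g lay between 2933 and 4078 CPM in every γδ and CD8αα sum and between 546 and 1056 CPM in CD8αβ cells, while Lat ran the other way.

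Intraepithelial γδ cells carried more RNA of the innate ITAM chains and less of Lat, Themis and Sh2d1a than CD8αβ cells, at much the same level of Lck. Fcer1g was at 3677 and 3442 CPM in γδ cells of the cystine samples and at 2933 and 2935 CPM in those of the control samples, against 703 and 546 CPM and 885 and 1056 CPM in CD8αβ cells. The γδ cells of every sample were above the CD8αβ cells of every sample. Fitted with edgeR's quasi-likelihood test with the sample as block, the log2 fold change of γδ over CD8αβ cells was 1.95 ± 0.15 (SE; adjusted p = 4.0e-07), about 3.86-fold. Lat was at 281 and 336 CPM in γδ cells of the cystine samples and 412 and 470.2 CPM in those of the control samples, against 1249.9 and 1243 CPM and 834 and 893 CPM in CD8αβ cells. The difference, -1.62 ± 0.16 on the log2 scale (adjusted p = 5.3e-06), was 3.06-fold lower, and the ranges did not overlap. Sh2d1a, the SLAM adaptor, was lower by more: 7.06 and 9.56 CPM in the γδ cells of the cystine samples and 13.0 and 12.9 CPM in those of the control samples, against 87.2 and 73.0 CPM and 84.6 and 59.4 CPM in CD8αβ cells. Its log2 fold change was -2.95 ± 0.17 (adjusted p = 3.8e-08).

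Of the 10 genes, 3 were higher (Fcer1g, Tyrobp and Zap70) and 5 lower (Lat, Themis, Sh2d1a, Syk and Lck) in γδ than in CD8αβ cells, beside 38% of all 9987 genes tested that passed in either direction, 19.3% higher and 18.7% lower. Zap70 was higher at 389 and 404 CPM in γδ cells of the cystine samples and 369 and 376 CPM in those of the control samples, against 269 and 248 CPM and 243 and 274 CPM in CD8αβ cells, a log2 fold change of 0.46 ± 0.07 (adjusted p = 0.00022). Themis differed by -0.65 ± 0.16 (adjusted p = 0.0068). Cd247, with 0.15 ± 0.07, and Hcst, with -0.11 ± 0.10, did not pass. Library totals in place of TMM scaling brought Cd247 to 0.26 (adjusted p = 0.013). The Lck difference of -0.18 ± 0.05 (adjusted p = 0.018) was small and depended on the scaling, being -0.06 (adjusted p = 0.35) with library totals and -0.16 (adjusted p = 0.11) without cystine replicate 2. TMM moved the median of all genes by -0.11 in this comparison.

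The Tyrobp and Syk values depended on the cells with markers of other types. Over all CD8αβ cells the log2 fold change of Tyrobp was 0.91 ± 0.12 (adjusted p = 8.6e-05), and over cleaned cells it was 2.14 ± 0.17 (adjusted p = 3.4e-07). Tyrobp in cleaned CD8αβ cells was at 470.0 and 299.6 CPM in the cystine samples and 454 and 539.9 CPM in the control samples. Syk was at most 11.0 CPM in γδ cells and between 9.89 and 17.6 CPM in CD8αβ cells, a log2 fold change of -1.16 ± 0.30 (adjusted p = 0.0083), but cleaned CD8αβ cells had at most 6.14 CPM and the difference was -0.00 ± 0.35 (adjusted p = 1.0). Without cystine replicate 2 the Syk value was -0.98 (adjusted p = 0.069). The other calls kept their direction in cleaned cells, with 2.17 for Fcer1g, -1.74 for Lat, -0.78 for Themis, 0.34 for Zap70 and -0.30 for Lck.

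CD8αα αβ cells had more Fcer1g, Tyrobp and Zap70 and less Lat, Themis, Sh2d1a and Syk than CD8αβ cells, with 3 of the 10 genes higher and 4 lower beside 32.7% of all genes tested, 16.2% higher and 16.5% lower. Fcer1g was at 4078 and 3985 CPM in CD8αα cells of the cystine samples and at 3674 and 3614 CPM in those of the control samples, a log2 fold change of 2.23 ± 0.14 over CD8αβ cells (adjusted p = 6.0e-07). Tyrobp was at 3513 and 3015 CPM, and 2567 and 2375 CPM, and differed by 1.41 ± 0.07 (adjusted p = 2.3e-07), or by 2.65 ± 0.14 over cleaned cells. Lat, at 248 and 293 CPM in the cystine samples and 307 and 382 CPM in the control samples, differed by -1.86 ± 0.15. Themis, at 46.5 and 54.2 CPM, and 68.7 and 55.2 CPM, differed by -1.43 ± 0.15 (adjusted p = 4.1e-05), and Sh2d1a by -2.89 ± 0.14. The Syk call, -0.84 ± 0.27 (adjusted p = 0.036), became 0.66 (adjusted p = 0.14) over cleaned cells, and leaving out cystine replicate 2 (-0.62), control replicate 1 (-0.86) or control replicate 2 (-0.69) also ended it. Over cleaned CD8αβ cells, Cd247 (-0.32 ± 0.08), Hcst (-0.40 ± 0.11) and Lck (-0.22 ± 0.05) were lower as well. Over all cells Cd247 (-0.28, adjusted p = 0.0053) and Hcst (-0.44, adjusted p = 0.00056) passed without control replicate 2 and not without any other sample. The γδ and CD8αα comparisons share the CD8αβ cells, so they are not separate observations.

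**Figure D2:**
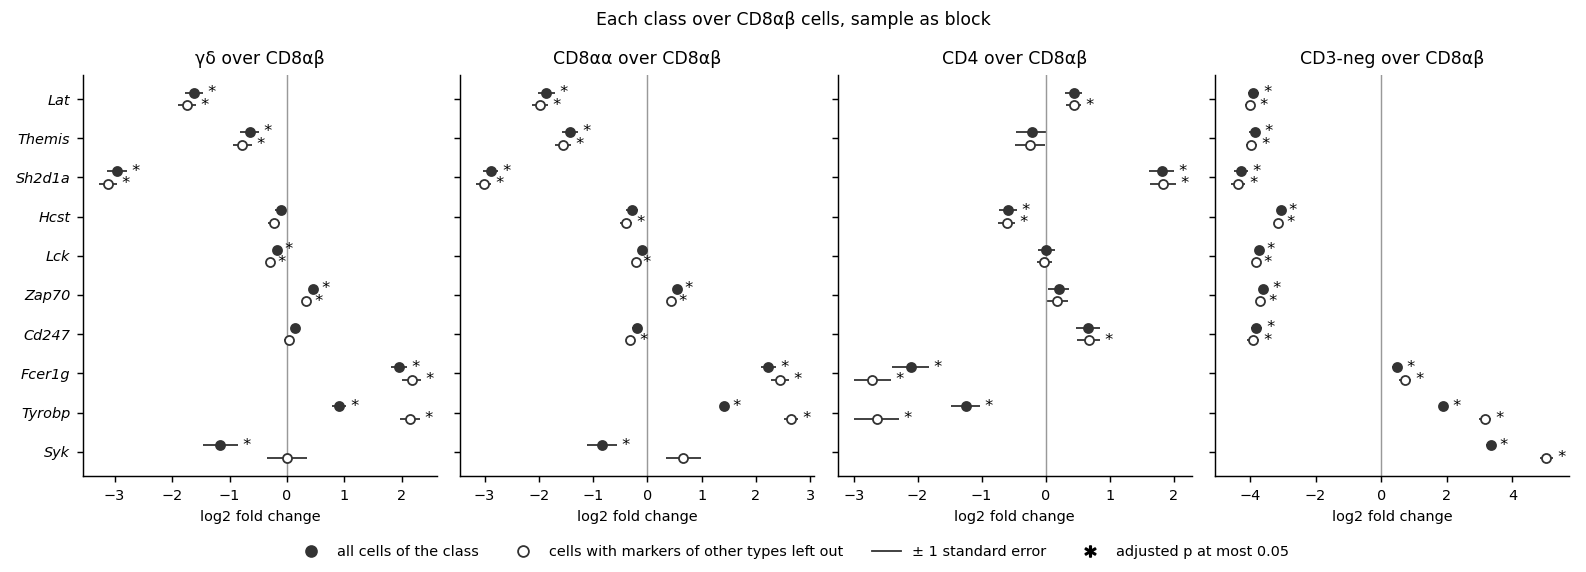
Log2 fold change (horizontal axis) of each gene in γδ, CD8αα, CD4 and CD3-negative cells over CD8αβ cells of the same 4 samples, with 1 standard error; filled points are all cells of the classes, open points the cleaned cells, and asterisks mark an adjusted p of at most 0.05. Open and filled points part for Tyrobp and Syk, and lie close together for Lat, Themis and Sh2d1a.

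Other genes of the pathway were read from a list of 61, of which 58 were tested in γδ over CD8αβ cells. Of these 58, 23 were higher and 21 lower, with a median log2 fold change of 0.02 against 0.03 for all genes tested. Among all genes tested 19.3% were higher and 18.7% lower. By role, 16 of 42 genes of receptor signalling were higher and 13 lower, 5 of 9 other ITAM users and adaptors higher and 3 lower, and 2 of 7 SLAM family genes and Sh2d1a relatives higher and 5 lower. The higher ones included Lat2, a relative of Lat in B and myeloid cells (1.58 ± 0.14), the Tec kinase Txk (1.20 ± 0.11), the SLAM family receptor Cd244a (1.22 ± 0.11) and the phosphatase Ubash3b (1.08 ± 0.10). The lower ones included the surface receptors Cd5 (-4.95 ± 0.14), Cd2 (-3.41 ± 0.13), Cd6 (-3.55 ± 0.16) and Cd28 (-4.23 ± 0.24). Lat2 averaged 198 ± 11.2 CPM after TMM scaling in γδ cells and 70.5 ± 24.2 in CD8αβ cells (SD, n = 4 each), so Lat and Lat2 differed in opposite directions. In CD8αα over CD8αβ cells 23 of the 58 tested were higher and 20 lower, beside 16.2% and 16.5% of all genes tested. The higher ones were led by Ubash3b (1.16), Lat2 (1.81), Sh2d1b1, a relative of Sh2d1a (1.71), and Sla2 (0.84). The lower ones were led by Cd5 (-4.40), Cd6 (-3.84), Ubash3a (-4.03) and Cd2 (-3.09).

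Set against each other, γδ and CD8αα cells differed by little, yet 6 of the 10 genes passed where 3.98% of all 10788 genes tested did, 4 of them higher in γδ cells beside 1.28% and 2 lower beside 2.7%. Themis was the gene that differed most, 73.9 and 91.3 CPM in γδ cells of the cystine samples and 125 and 109 CPM in those of the control samples against 46.5 and 54.2 CPM and 68.7 and 55.2 CPM in CD8αα cells, a log2 fold change of 0.79 ± 0.06 (adjusted p = 2.7e-05). In every sample its γδ value was above its CD8αα value. Cd247 (0.34 ± 0.04), Lat (0.24 ± 0.04) and Hcst (0.17 ± 0.03) were higher in γδ cells, and Fcer1g (-0.28 ± 0.03) and Tyrobp (-0.50 ± 0.06) were lower. These calls rest on the comparison within each sample: without the sample block 0 of the 10 passed and 19 genes in all did, against 429 with it. With γδ cells limited to those with a Tcrg-V7 UMI, Lat (0.16) and Fcer1g (-0.11) did not pass, and a wider class rule had the same effect on both (0.15 and -0.08). Hcst did not pass after thinning to 1000 UMIs per cell (0.10). Among the other pathway genes 5 of 56 tested were higher, led by Grap2 (0.31) and Cd79b (0.31), and 6 lower, led by Sh2d2a (-0.33) and Txk (-0.19).

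Within γδ cells Tyrobp and Fcer1g levels were set side by side by Cd8a and by variable gene, with no test of either split. Tyrobp was at 3314 and 2558 CPM in Cd8a-positive γδ cells of the cystine samples and 1959.6 and 1618 CPM in those of the control samples, against 1509 and 1147 CPM, and 814 and 573 CPM, in Cd8a-negative γδ cells. In each sample the Cd8a-positive cells were thus higher. Fcer1g lay between 3149 and 3948 CPM in Cd8a-positive and between 1815 and 2351 CPM in Cd8a-negative γδ cells, whereas Lat was at 259 to 462 CPM and 388 to 514 CPM. γδ cells with a Tcrg-V7 UMI, the main variable gene of gut epithelial γδ cells, had 3271 to 3995 CPM of Fcer1g and 3.57 to 6.55 CPM of Sh2d1a, and those with a Tcrg-V1 UMI had 2374 to 3263 CPM and 12.0 to 31.3 CPM. Tyrobp was at 3105 and 2438 CPM in Tcrg-V7 cells of the cystine samples and 1872 and 1622 CPM in those of the control samples, and at 2588 and 1676 CPM, and 1418 and 1086 CPM, in Tcrg-V1 cells. Fcer1g was higher and Lat lower than in CD8αβ cells in either subset: 2.13 and -1.69 for Tcrg-V7 cells and 1.73 and -1.30 for Tcrg-V1 cells.

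CD4 cells stood apart by Sh2d1a. Its level was 330.4 and 307 CPM in CD4 cells of the cystine samples and 228 and 235 CPM in those of the control samples, above the CD8αβ cells of every sample, with a log2 fold change of 1.81 ± 0.20 (adjusted p = 1.2e-05). Fcer1g was lower in CD4 cells, with 288 and 243 CPM in the cystine samples and 103 and 107 CPM in the control samples, a log2 fold change of -2.11 ± 0.29 (adjusted p = 0.00023). In all, 1 of 9 tested genes was higher and 3 lower beside 3.65% of 6251 genes, 1.92% higher and 1.73% lower, and Syk had too few UMIs to be tested. Hcst (-0.59 ± 0.15, adjusted p = 0.031) lost its call without either control replicate (-0.65 and -0.63) or cystine replicate 2 (-0.56), each with an adjusted p of 0.11. Over cleaned cells it was -0.61 ± 0.13 (adjusted p = 0.0075). Tyrobp, at -1.25 ± 0.23 over all cells (adjusted p = 0.0030), was at -2.64 ± 0.35 over cleaned cells (adjusted p = 5.9e-05), where Fcer1g was at -2.71 ± 0.29. Over all cells without control replicate 2 Tyrobp was at -1.17 (adjusted p = 0.057). Against cleaned CD8αβ cells with a Gzmk UMI Tyrobp was at 0.81 (adjusted p = 0.32) and Fcer1g at -1.12 (adjusted p = 0.18). The CD4 cells were not cleaned in that comparison, so its sides were not treated alike. Cells with plasmacytoid dendritic markers held 67.9% to 100% of the Tyrobp UMIs of these CD4 cells. Over cleaned cells Lat was higher in CD4 than in CD8αβ cells by 0.44 ± 0.12 (adjusted p = 0.036; 0.10 over all cells) and Cd247 by 0.67 ± 0.17 (adjusted p = 0.029; 0.058 over all cells, 0.047 with library totals). Over all cells both passed without cystine replicate 1, Lat at 0.56 and Cd247 at 0.83. Among the other listed genes, Cd5 (1.89), Cd28 (2.42), Slamf1 (2.78) and Cd2 (0.93) were higher and Cd244a (-1.96), Lat2 (-2.69), Ptpn6 (-0.87) and Txk (-1.57) lower.

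CD3-negative cells held little of the T cell genes and had the highest Syk levels of the 5 classes. All 10 genes passed against CD8αβ cells, beside 46.6% of 9619 genes (25.3% higher and 21.4% lower), with Syk (3.33 ± 0.14), Tyrobp (1.90 ± 0.13) and Fcer1g (0.48 ± 0.16) higher and the other 7 lower, between -3.06 for Hcst and -4.27 for Sh2d1a. Syk was at 155 and 122 CPM in CD3-negative cells of the cystine samples and 118 and 109.8 CPM in those of the control samples, and over cleaned CD8αβ cells its log2 fold change was 5.04 ± 0.20. Tyrobp was then at 3.16 ± 0.18 and Fcer1g at 0.73 ± 0.17. The Fcer1g call did not hold with library totals (0.35, adjusted p = 0.092) nor with 3 samples when the one left out was control replicate 1 (0.51, 0.078), control replicate 2 (0.49, 0.078) or cystine replicate 2 (0.26, 0.19), the second value being the adjusted p. The Fcer1g call was also lost with doublets left in, without the sample block and against cleaned Gzmk-negative CD8αβ cells, and it passed in 11 of 18 alternatives. TMM moved the median of all genes by 0.13 here. Of the other pathway genes 19 of 59 tested were higher, led by the B cell signalling genes Blnk (3.09), Cd79b (3.64), Lyn (2.76) and Btk (3.32), and 31 lower, led by Cd6 (-5.62), Cd5 (-4.27), Skap1 (-3.22) and Sh2d2a (-3.02).

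The CD3-negative class was a mixture, and the 10 genes divided it. Cells with B cell markers, 1874 and 772 in the cystine samples and 277 and 286 in the control samples, had Syk at 184 and 197 CPM in the cystine samples and 139.9 and 146 CPM in the control samples, with Tyrobp at 51.0 to 127 CPM. Cells with plasmacytoid dendritic markers had Tyrobp at 6521 and 7211 CPM, and 7611 and 5651 CPM, Fcer1g at 1024 to 1451 CPM and Lat at 103 to 144 CPM. Myeloid-marked cells were high in both ITAM chains, with Fcer1g at 2445 and 3488 CPM in the cystine samples and 3086 and 4408 CPM in the control samples. Cells with an Ncr1 UMI, a marker of natural killer cells and related lymphocytes, were only 13 and 24 in the cystine samples and 16 and 14 in the control samples. They had Fcer1g at 3842 to 5892 CPM, Tyrobp at 3851 to 4896 CPM, Hcst at 842 to 1125 CPM and Lck at 543 to 1255 CPM. Cells that met none of these marker rules numbered 158 and 204 in the cystine samples and 146 and 82 in the control samples. In them 6 epithelial marker genes summed to 13033 to 20577 CPM, beside 1571 to 4014 CPM in cells with plasmacytoid dendritic markers. The makeup differed between samples, B-marked cells being most of the class in cystine replicate 1, and the part of makeup in levels over the whole class was not tested.

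**Figure D3:**
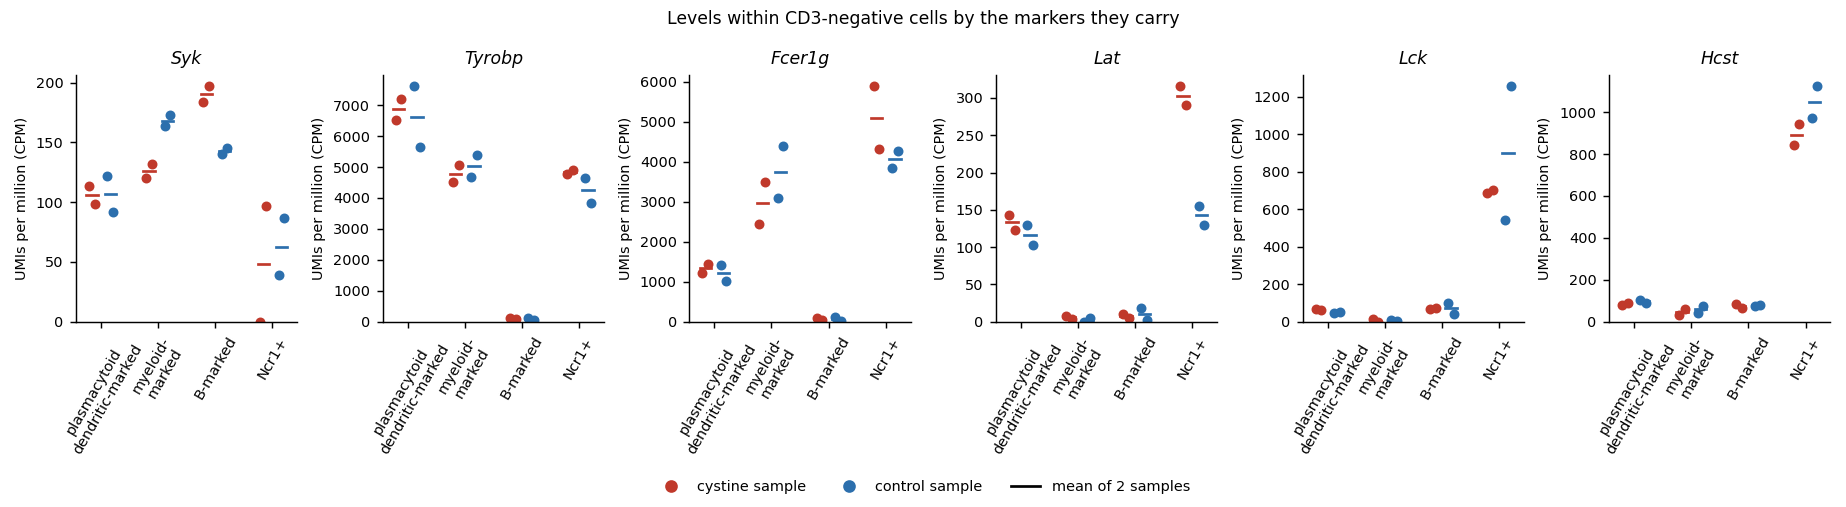
Levels of 6 genes (CPM, vertical axes from 0) in CD3-negative cells that carry plasmacytoid dendritic, myeloid or B cell markers or an Ncr1 UMI; each point is 1 sample and each bar the mean of 2 samples. Tyrobp was at most 127 CPM in B-marked cells and at least 3851 CPM in each sample of the other 3 sets, and the Ncr1 set holds at most 24 cells per sample.

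By mean level over the 4 samples, Lat was ordered CD4 (1457 CPM), CD8αβ (1055), γδ (375), CD8αα (308) and CD3-negative (64.4), and of neighbours in that order only γδ and CD8αα overlapped. Sh2d1a followed the order CD4 (275 CPM), CD8αβ (76.0), CD8αα (10.9), γδ (10.6) and CD3-negative (4.07), with the same single overlap. Fcer1g was ordered CD8αα (3838 CPM), γδ (3247), CD3-negative (1026), CD8αβ (797) and CD4 (185), where CD8αα and γδ, and CD3-negative and CD8αβ, overlapped. For Lck no neighbours among the 4 T cell classes could be parted, with means of 1109 to 1209 CPM, against 79.0 CPM in CD3-negative cells. Zap70 ran from CD8αα (401 CPM) and γδ (384) through CD4 (307) to CD8αβ (259) and CD3-negative cells, only the first pair overlapping. Cd247 was ordered CD4 (374 CPM), γδ (268), CD8αβ (222), CD8αα (207) and CD3-negative (15.7), the first pair and the CD8 pair overlapping. Hcst was ordered γδ (863), CD8αβ (850.1), CD8αα (747), CD4 (583) and CD3-negative (92.4), with overlaps among the first 3. For Tyrobp the order was CD3-negative (3490 CPM), CD8αα (2868), γδ (2126), CD8αβ (1007) and CD4 (465), again with overlaps among the first 3. Themis was ordered CD8αβ (140.0), CD4 (125), γδ (99.8), CD8αα (56.1) and CD3-negative (8.71), likewise. Syk was at 126 CPM in CD3-negative cells and at 6.61 to 16.0 CPM in the 4 T cell classes, whose neighbours all overlapped. Over the 16 cleaned sums of the 4 T cell classes, log2 levels of Fcer1g and Tyrobp went together (Pearson's r = 0.95), as did those of Lat and Sh2d1a (0.97), and those of Lat and Fcer1g ran against each other (-0.91). These points share 4 libraries and 4 classes, so the values only describe the class pattern.

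Among 6081 other genes compared over the 20 sums of 5 classes and 4 samples, Lat was most like Thy1 (r = 0.98), Sh2d1a most like Pdcd1 (0.99), Themis most like Bcl11b (0.98) and Fcer1g most like Aoah (0.96). Cd247 was most like Lcp2 (0.98), Zap70 most like Rinl (0.99) and Lck most like Klk8 (0.99). Syk was most like the class II genes H2-Oa and H2-DMb2 (0.98 each) and Tyrobp most like Ptpn6 (0.93). These sums are not cleaned and include the CD3-negative class, so the values do not describe the T cell classes alone. For example, Zap70 and Lck correlated at 0.98 over these 20 sums and at -0.46 over the 16 cleaned T cell sums. Cd247 and Lck did at 0.98 and 0.59.

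The diets were compared within each class, 2 cystine against 2 control samples. In γδ cells Tyrobp was at 3007 and 2311 CPM in the cystine samples, against 1735 and 1450.0 CPM in the control samples. The groups did not overlap, and the log2 fold change was 0.68 ± 0.15 with an adjusted p of 0.12. It passed in 9 of 17 alternatives, among them cleaned cells (0.72, adjusted p = 0.029) and either variable gene subset (0.60, adjusted p = 0.047, for Tcrg-V7; 0.72, adjusted p = 0.014, for Tcrg-V1), and leaving out cystine replicate 2 gave 0.87 (adjusted p = 0.012). Lat was at 281 and 336 CPM, against 412 and 470.2 CPM, a log2 fold change of -0.58 ± 0.16 (adjusted p = 0.31). Themis was at 73.9 and 91.3 CPM in the cystine samples, against 125 and 109 CPM in the control samples (-0.56 ± 0.16, adjusted p = 0.34). Hcst was at 720.1 and 768 CPM, against 902 and 1060.0 CPM (-0.47 ± 0.15, adjusted p = 0.48; -0.62 and 0.037 without control replicate 1). None of the 10 genes passed in γδ cells with edgeR, where 0.265% of all genes tested did, and DESeq2's Wald test called 1, Tyrobp. With edgeR 5 of the 10 had an unadjusted p under 0.05, beside 594 of all 10552 genes tested.

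In CD8αα cells 0 of the 10 genes passed with edgeR or with DESeq2's Wald test, and 0.00894% of all genes tested passed with edgeR. By each test 5 of the 10 had an unadjusted p under 0.05. Of all 11189 genes 656 did with edgeR and 352 with the Wald test. Tyrobp, at 3513 and 3015 CPM in the cystine samples and 2567 and 2375 CPM in the control samples, differed by 0.33 ± 0.10 (adjusted p = 0.76). Hcst was at 621 and 675 CPM, against 751 and 943 CPM (-0.47 ± 0.15, adjusted p = 0.78). Lat was at 248 and 293 CPM, against 307 and 382 CPM (-0.43 ± 0.17, adjusted p = 0.82). The 2 groups did not overlap for 9 of the 10 genes in γδ cells and for 9 in CD8αα cells, where 35% and 37.8% of all genes tested did not overlap. In each of these classes 3 genes were above and 6 below, Fcer1g and Tyrobp being above and Lat, Themis, Hcst, Cd247, Lck and Sh2d1a below in both. Among all genes tested 23.4% were above and 11.7% below in γδ cells, and 26.2% above and 11.6% below in CD8αα cells.

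CD8αβ cells ran the other way for several of these genes. Fcer1g was at 703 and 546 CPM in the cystine samples, against 885 and 1056 CPM in the control samples, and was the only one of the 10 to pass (-0.72 ± 0.14, adjusted p = 0.042), beside 0.707% of 8912 genes. In cleaned cells it was at 614 and 420.1 CPM, against 765 and 1017 CPM (-0.87 ± 0.17, adjusted p = 0.038). The call was lost with library totals (-0.63, adjusted p = 0.11), with doublets left in (-0.45, 0.38), with a stricter cell filter (-0.53, 0.21) and when control replicate 1 (-0.87, 0.097), control replicate 2 (-0.54, 0.48) or cystine replicate 2 (-0.56, 0.071) was left out, the second value being the adjusted p. Lat was at 1249.9 and 1243 CPM in the cystine samples, against 834 and 893 CPM in the control samples, with a log2 fold change of 0.45 ± 0.10 (adjusted p = 0.076) over all cells and 0.49 ± 0.09 (adjusted p = 0.029) over cleaned cells. With library totals it was 0.53 (adjusted p = 0.046). Both cystine samples lay above both control samples. Themis was at 164 and 170.2 CPM, against 121 and 105 CPM (0.50 ± 0.13, adjusted p = 0.14). Hcst was at 928 and 903 CPM, against 769 and 800.3 CPM (0.15 ± 0.10, adjusted p = 0.66). Groups did not overlap for 5 of the 10 genes, where 42.7% of all genes tested did not: Hcst, Lat, Themis and Syk were above, beside 27.3% of all genes, and Fcer1g below, beside 15.3%.

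**Figure D4:**
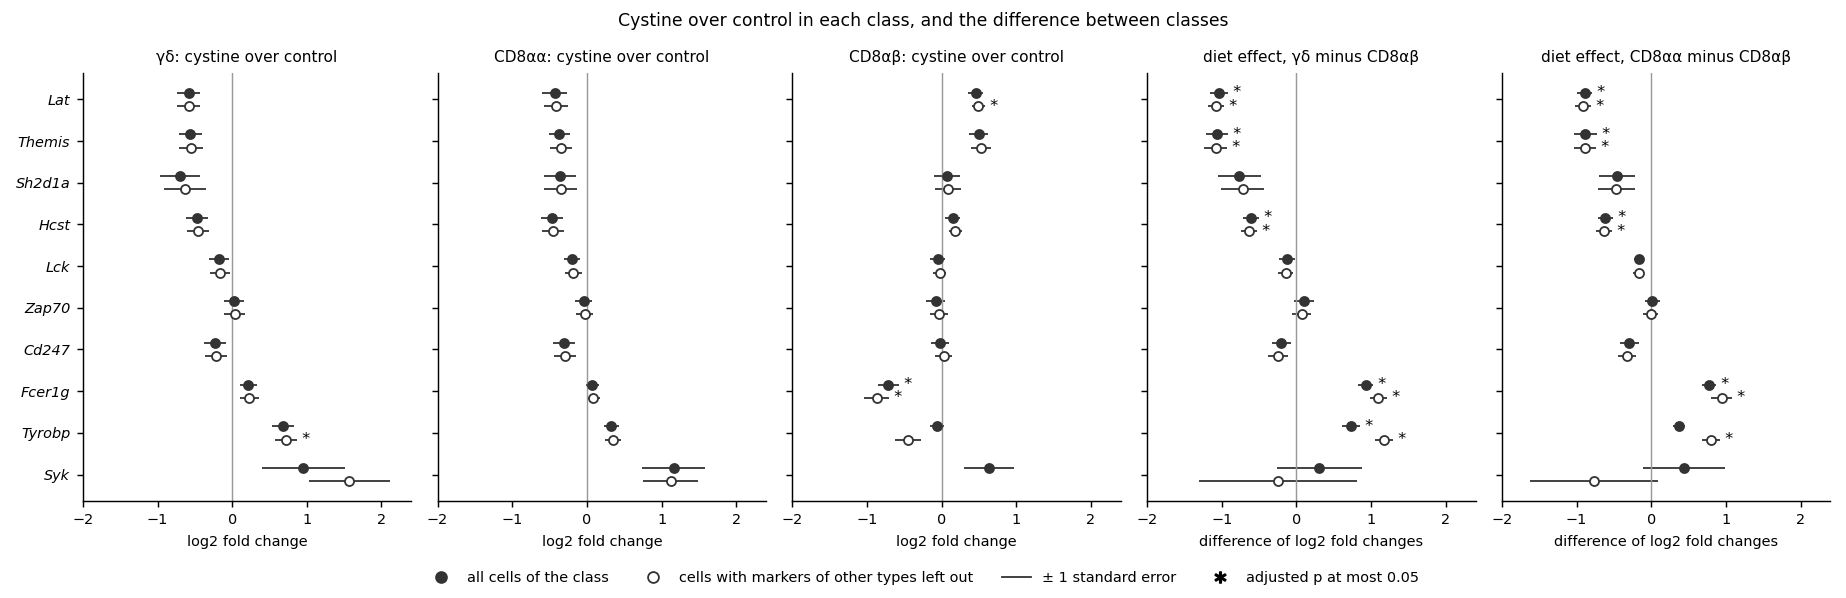
Log2 fold change of cystine over control samples (left 3 panels) and its difference between classes (right 2 panels), each with 1 standard error; filled points are all cells, open points cleaned cells, and asterisks mark an adjusted p of at most 0.05. Lat, Themis and Hcst lie left of 0 in γδ and CD8αα cells and right of 0 in CD8αβ cells, and Fcer1g the other way.

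The difference between classes was tested itself, as the interaction of class and diet with the sample as block. The diet effect in γδ cells minus that in CD8αβ cells was -1.04 ± 0.12 for Lat (adjusted p = 1.3e-06), -1.06 ± 0.15 for Themis (adjusted p = 3.5e-05) and -0.61 ± 0.11 for Hcst (adjusted p = 0.0015). It was 0.93 ± 0.10 for Fcer1g (adjusted p = 6.5e-07) and 0.73 ± 0.12 for Tyrobp (adjusted p = 0.00033). So 5 of the 10 genes passed, beside 1.47% of 10641 genes, and Lck, Zap70, Cd247, Syk and Sh2d1a did not. Over cleaned cells the same 5 passed, with -1.08 for Lat, -1.08 for Themis, -0.63 for Hcst, 1.10 for Fcer1g and 1.17 for Tyrobp. Without control replicate 2 Hcst (-0.52, adjusted p = 0.23) and Tyrobp (0.64, adjusted p = 0.14) did not pass. With γδ cells limited to either variable gene the same 5 passed.

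For CD8αα minus CD8αβ cells 4 genes passed beside 0.435% of 11253 genes: Lat (-0.89 ± 0.10, adjusted p = 0.0034), Themis (-0.88 ± 0.15, adjusted p = 0.028), Hcst (-0.62 ± 0.10, adjusted p = 0.022) and Fcer1g (0.77 ± 0.10, adjusted p = 0.0049). Tyrobp, at 0.37 ± 0.08 (adjusted p = 0.11) over all cells, was 0.80 ± 0.12 (adjusted p = 0.0055) over cleaned cells and 0.52 (adjusted p = 6.1e-06) without cystine replicate 2. None of these 4 held without control replicate 2, where the adjusted p was 0.059 for Lat (-0.77), 0.19 for Themis (-0.92), 0.20 for Hcst (-0.47) and 0.15 for Fcer1g (0.64). Themis also failed without control replicate 1 (-0.84, adjusted p = 0.14) and with a wider class rule (-0.81, adjusted p = 0.052). Fcer1g failed with doublets left in (0.45, adjusted p = 0.13) and with the stricter cell filter (0.64, adjusted p = 0.084). Both interactions use the same CD8αβ cells. Of 58 other pathway genes tested for γδ minus CD8αβ cells 5 passed with a value above 0, among them Lat2 (0.89), Trat1 (0.67), Plcg2 (0.79) and Cd244a (0.55). Below 0 there were 2, among them Ubash3a (-1.55). Among all genes tested 0.893% passed above 0 and 0.573% below. For CD8αα minus CD8αβ cells 1 of 59 passed, Lax1 (-1.0). Within CD8αβ cells 2 of 57 passed between diets, beside 0.707% of all genes tested. They were Lat2 (-0.88 ± 0.15) and the receptor-associated adaptor Trat1 (-0.99 ± 0.18), both lower in the cystine samples. In γδ and CD8αα cells 0 of 56 and 0 of 58 passed, beside 0.265% and 0.00894% of all genes tested.

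The makeup of the CD8αβ class differed between the diets. Of cleaned CD8αβ cells 62.9% and 58.2% carried a UMI of Gzmk, a granzyme gene of some CD8 T cells, in the cystine samples, against 18.8% and 26.8% in the control samples. Within a sample and relative to Gzmk-negative cells, Gzmk-positive CD8αβ cells had less Fcer1g (-1.32 ± 0.18, adjusted p = 4.2e-05) and less Tyrobp (-1.41 ± 0.21, adjusted p = 7.1e-05). They were the only 2 of 9 tested genes to pass, beside 1.27% of all genes. Lat (0.27, adjusted p = 0.071) and Hcst (0.26, adjusted p = 0.065) did not. Those calls were not made without the sample block (adjusted p of 0.34 and 0.20) or by DESeq2's Wald test (1.0 each). In Gzmk-positive cells Fcer1g was at 263 and 184 CPM in the cystine samples, against 709 and 767 CPM in the control samples, and in Gzmk-negative cells at 1244 and 753 CPM, against 778 and 1125 CPM. The low values were thus those of Gzmk-positive cells in the cystine samples. Tyrobp followed, at 169 and 142 CPM against 371 and 502 CPM in Gzmk-positive cells and at 1011 and 522 CPM against 473 and 556 CPM in Gzmk-negative cells.

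Tested between diets within Gzmk-positive cells, Fcer1g (-1.81 ± 0.17, adjusted p = 4.6e-05), Tyrobp (-1.59 ± 0.19, adjusted p = 0.00043) and Lat (0.57 ± 0.10, adjusted p = 0.0099) passed, beside 1.17% of all genes. Within Gzmk-negative cells 0 of 9 tested genes passed with edgeR, the tool run on this subset, beside 0.214% of all genes. The values were -0.02 ± 0.20 for Fcer1g, 0.48 ± 0.21 for Tyrobp and 0.26 ± 0.10 for Lat. An unadjusted p under 0.05 was found for 2 of the 9, beside 549 of all 7021 genes. Lat was at 1499 and 1537 CPM in Gzmk-positive cells of the cystine samples, against 975 and 967 CPM in those of the control samples, and at 1177 and 1151 CPM, against 901 and 942 CPM, in Gzmk-negative cells. In both subsets the cystine samples were above the control samples. With Gzmk-negative cells alone as the CD8αβ class, the interaction with diet still passed for Lat (-0.83 for γδ, -0.67 for CD8αα) and Hcst (-0.53 for each), whereas Fcer1g (0.25 and 0.11), Tyrobp (0.25 and -0.11) and Themis (-0.65 and -0.46) did not pass. The γδ and CD8αα cells were not cleaned in these interactions. The difference of the diet effect between Gzmk-positive and Gzmk-negative cells was not tested.

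**Figure D5:**
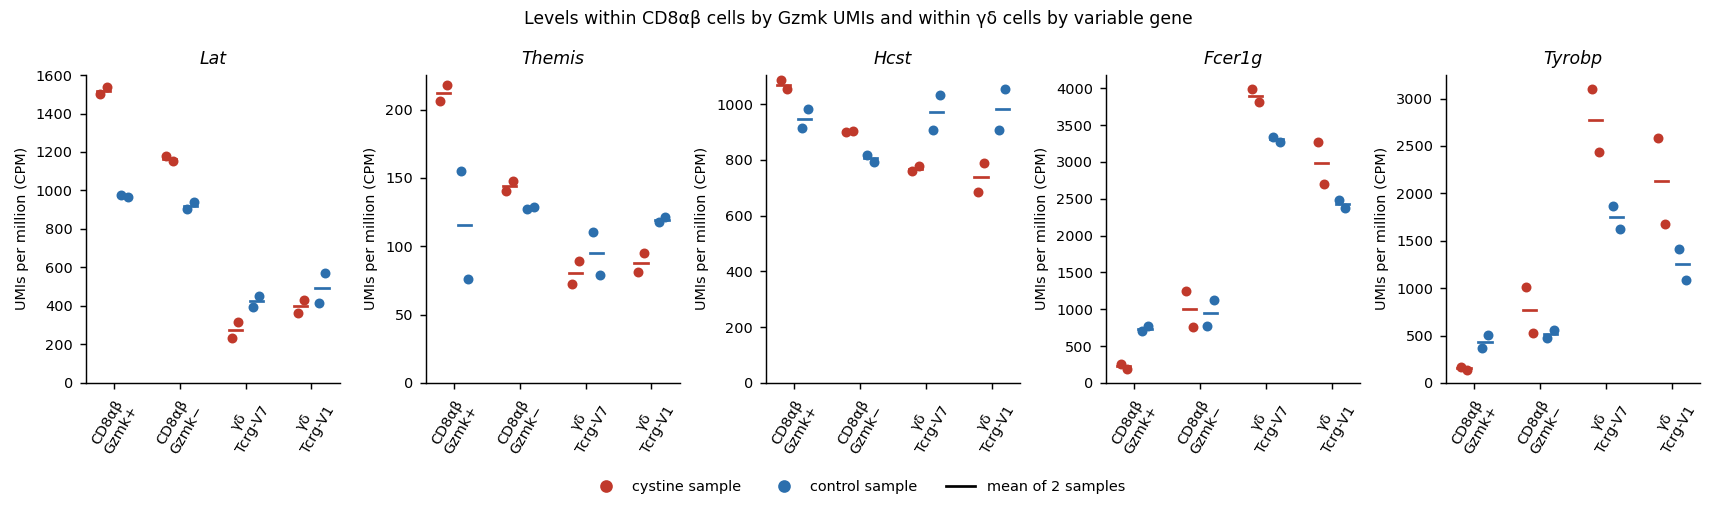
Levels of 5 genes (CPM, vertical axes from 0) in cleaned CD8αβ cells with and without a Gzmk UMI and in γδ cells with a Tcrg-V7 or a Tcrg-V1 UMI; each point is 1 sample and each bar the mean of 2 samples. Fcer1g was at most 263 CPM in Gzmk-positive cells of the cystine samples and at least 709 CPM in the other CD8αβ sums.

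Other values moved with the diets in the same cells. The summed γ constant genes were at 311 and 451 CPM in CD8αβ cells of the cystine samples and at 701 and 785 CPM in those of the control samples, beside 1300 to 1602 CPM in γδ and 1135 to 1249 CPM in CD8αα cells, and Fcer1g of the CD8αβ class was likewise lower in the cystine samples. Tyrobp lay at 977 to 1029 CPM over all CD8αβ cells of the 4 samples, but cells with plasmacytoid dendritic markers held 45.4% to 72.0% of its UMIs there. In cleaned cells its log2 fold change between diets was -1.59 among Gzmk-positive and 0.48 (not passed) among Gzmk-negative cells. The 4 Paneth cell genes summed to 338 to 753 CPM in γδ, CD8αα and CD8αβ cells of the cystine samples and to at most 16.3 CPM in those of the control samples, and all 4 were detected in each class. Their part in the differences between diets was not tested.

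In CD4 cells 0 of 9 genes passed between diets with edgeR or with DESeq2's Wald test, and 0% of 2159 genes passed with edgeR. With edgeR 2 of the 9 had an unadjusted p under 0.05, beside 136 of all 2159 genes. Fcer1g was at 288 and 243 CPM in the cystine samples, against 103 and 107 CPM in the control samples (1.38 ± 0.34, adjusted p = 0.46; 1.49 and 0.036 without cystine replicate 2), and at 179 and 124 CPM, against 90.6 and 33.0 CPM, in cleaned cells. Tyrobp was at 568 and 736 CPM, against 206 and 352 CPM (1.30 ± 0.32, adjusted p = 0.46), and passed without cystine replicate 1 (1.47, adjusted p = 0.00055) or 2 (1.10, adjusted p = 0.035). In cleaned CD4 cells Tyrobp was at 157 and 82.6 CPM, against 52.8 and 0 CPM. The 2 groups did not overlap for 5 of 9 genes, beside 35.8% of all genes tested. Fcer1g, Tyrobp and Sh2d1a were above, beside 14.5%, and Cd247 and Hcst below, beside 21.3%. B cell marker genes summed to 1008 and 92.9 CPM in CD4 cells of the cystine samples and to at most 14.7 CPM in those of the control samples.

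In CD3-negative cells 0 of 10 genes passed with either tool, and 0% of 10729 genes passed with edgeR. With edgeR 0 of the 10 had an unadjusted p under 0.05, beside 411 of all 10729 genes. Tyrobp was at 2232 and 3783 CPM in the cystine samples, against 3972 and 3972 CPM in the control samples (-0.36 ± 0.26, adjusted p = 0.95). Fcer1g was at 583 and 1056 CPM, against 1082 and 1385 CPM (-0.56 ± 0.32, adjusted p = 0.95). Groups did not overlap for 8 of the 10 genes, beside 34.8% of all genes, Syk being above, beside 14.5%, and 7 below, beside 20.3%. Without cystine replicate 2 both Tyrobp and Fcer1g passed (-0.81 for Tyrobp, adjusted p = 4.3e-05; -1.06 for Fcer1g, adjusted p = 0.0016), and cystine replicate 1 is the sample with the most B-marked cells.

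Shares of cells with a UMI were compared after each cell was thinned to 1000 UMIs, with shallower cells left out (602 and 614 cleaned γδ cells of the cystine samples, 862 and 374 of the control samples; 207 and 171, and 68 and 23, cleaned CD8αβ cells). Among cleaned γδ cells Tyrobp was seen in 65.8% ± 9.63 of cells in the cystine samples and 44.2% ± 7.08 in the control samples (SD, n = 2 each; 69.5% and 48.0% without thinning). Lat was seen in 24.9% ± 2.98 and 34.0% ± 2.4 (32.6% and 43.7% without thinning). Fcer1g was seen in 88.2% and 79.4% (90.4% and 82.9% without thinning) and Hcst in 47.3% and 58.0% (56.8% and 67.2%). Among cleaned CD8αβ cells Lat was seen in 71.7% ± 0.64 in the cystine samples and 59.3% ± 3.51 in the control samples (80.9% and 74.5% without thinning). Fcer1g was seen in 16.0% ± 3.84 and 28.4% ± 0.079 (19.3% and 32.9%). Median depth before thinning was 1282 to 1587 UMIs in cleaned γδ cells, 1325 to 1838 in cleaned CD8αβ cells and 1097 to 1267 in B-marked CD3-negative cells, which should lack Lat. The B-marked cells showed Lat in 0.84% and 1.32%, Fcer1g in 5.88% and 3.19%, Tyrobp in 9.28% and 8.20% and Hcst in 8.31% and 8.38%. The source of these UMIs in B-marked cells was not tested. With 2 against 2 samples the two-sided exact permutation test cannot give a p below 0.33, so these shares could not reach the threshold.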

How the data were processed

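Immune cells of small intestine crypts were profiled in 2 cystine and 2 control samples. The authors deposited UMI counts per gene and cell as raw matrices whose headers name Cell Ranger 7.0.1, while Cell Ranger 3.1.0 and Seurat 4.0.1, on build GRCm39, are listed in the submitters' processing notes. In Python 3.11.15 with scanpy 1.11.5, cells with at least 300 genes, at least 500 UMIs and at most 10% mitochondrial counts were kept, and doublets were removed with scrublet. Counts were summed per sample and class and tested with edgeR 4.0.16 in R 4.3.3 (quasi-likelihood, TMM, filterByExpr, Benjamini-Hochberg at 0.05 over all genes tested); class comparisons and interactions had the sample as block, and diets were compared 2 against 2. DESeq2 1.42.0 was an alternative. CPM values are UMIs per 1000000 of the sum, with no length scaling, and no level was compared between genes. The pipeline was tested on simulated data. Shares were taken after thinning to 1000 UMIs.

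The 10 genes and the lists were chosen with earlier results of these data known. All 10 genes are reported. Of the listed pathway genes, up to 4 per direction with the smallest adjusted p past the threshold were named in each comparison. In class comparisons a named gene had to differ the same way in every sample, and in diet comparisons its groups could not overlap. No such check was made for the interactions. Splits by Gzmk, Tcrg-V7, Tcrg-V1 and by markers of other cell types, and the use of library totals, were chosen after seeing the data. Results for 1 withheld gene are not reported here.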

Additional observations from a re-analysis of the deposited data

Results flagged for a closer look

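The response to the diet differed between T cell classes, by a test of the difference itself, for 5 of the 10 genes between γδ and CD8αβ cells and for 4 between CD8αα and CD8αβ cells. Among all genes tested, 1.47% of 10641 and 0.435% of 11253 passed in these comparisons, in that order. The log2 difference of the diet effects, γδ minus CD8αβ, was 0.93 for Fcer1g, 0.73 for Tyrobp, -0.61 for Hcst, -1.04 for Lat and -1.06 for Themis. For CD8αα minus CD8αβ it was 0.77 for Fcer1g, -0.62 for Hcst, -0.89 for Lat and -0.88 for Themis. Both sets use the same CD8αβ cells. The Gzmk-positive share of cleaned CD8αβ cells, 62.9% and 58.2% in the cystine samples against 18.8% and 26.8% in the control samples, moved with these values. With Gzmk-negative CD8αβ cells alone, Lat and Hcst still passed in both comparisons, and Fcer1g, Themis and Tyrobp did not. Without control replicate 2 none of the 4 CD8αα differences passed with edgeR (Fcer1g 0.64, Hcst -0.47, Lat -0.77 and Themis -0.92, with 0.15, 0.20, 0.059 and 0.19 as adjusted p), and of the 5 γδ differences Hcst (-0.52, adjusted p = 0.23) and Tyrobp (0.64, adjusted p = 0.14) did not pass.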

How the results depend on the processing

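The number of genes called differed by more than 1.5 times from the reported count under these settings. For γδ over CD8αβ cells (3791 genes) DESeq2's Wald test called 2177, thinned cells gave 2333, Gzmk-positive CD8αβ cells 2435 and Tcrg-V1 cells 1358. For CD8αα over CD8αβ cells (3467) the Wald test called 2227, thinned cells gave 2228 and Gzmk-positive cells 1932. For CD4 cells (228) the Wald test called 137, no low count filter 466 and thinned cells 72; for CD3-negative cells (4487) thinned cells gave 2972. For γδ over CD8αα cells (429) the Wald test called 167, no low count filter 770, the strict cell filter 226, the wider class rule 184, thinned cells 279, no sample block 19 and Tcrg-V7 cells 65. For the diet in CD8αβ cells (63) no low count filter called 313, library totals 30, no doublet removal 16, thinned cells 29 and Gzmk-negative cells 15. For the diet in CD8αα cells (1) DESeq2 size factors called 2, the Wald test 25, no low count filter 48, no doublet removal 5, thinned cells 16, and 5 each were called without immunoglobulin and receptor genes and in cleaned cells. For the diet in γδ cells (28) no low count filter called 253, library totals 11, no doublet removal 12, cleaned cells 63, Tcrg-V7 cells 54 and Tcrg-V1 cells 16. For CD4 cells (0) the Wald test, no doublet removal and thinned cells called 2 each and no low count filter 54; for CD3-negative cells (0) the Wald test called 24 and no low count filter 130. For the interaction of γδ and CD8αβ cells (156) the Wald test called 31, the strict filter 83, thinned cells 80, Gzmk-negative cells 30 and Tcrg-V1 cells 75; for that of CD8αα and CD8αβ cells (49) no low count filter called 203, thinned cells 94 and Gzmk-negative cells 27. For Gzmk-positive over Gzmk-negative cells (87) the Wald test called 11 and no sample block 12. The cause was not tested.

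Leaving out each replicate in turn gave 2673 to 3724, 2339 to 3565, 130 to 221, 3386 to 4436 and 129 to 428 genes for the class comparisons in the order above, 20 to 166, 2 to 54, 6 to 180, 0 to 79 and 0 to 649 for the diet in CD8αβ, CD8αα, γδ, CD4 and CD3-negative cells, 45 to 216 and 16 to 109 for the interactions and 24 to 102 for the Gzmk comparison.

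A replicate block called 176 genes for the diet in CD8αβ cells, 140 in CD8αα, 161 in γδ, 4 in CD4 and 0 in CD3-negative cells. Deviations of same-numbered samples correlated at -0.05, -0.14, 0.16, 0.08 and 0.08 in CD8αβ, CD8αα, γδ, CD4 and CD3-negative cells. With so few samples a group these values cannot show or exclude a pairing, and the labels do not state one.

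The direction turned for Syk in γδ over CD8αβ cells (0.45 with Gzmk-negative and 0.68 with Gzmk-positive cells) and in CD8αα over CD8αβ cells (0.66 in cleaned, 0.77 with Gzmk-negative and 1.05 with Gzmk-positive cells), Tyrobp in CD4 cells (0.81 with Gzmk-positive cells), Cd79b in CD3-negative cells without B, plasmacytoid dendritic and myeloid cells (-1.64), Sh2d2a (0.040, wider class rule) and Slamf6 (-0.68, Tcrg-V7) in γδ over CD8αα cells, Tyrobp for the diet in CD8αβ cells (0.014 with library totals, 0.14 with the strict filter, 0.48 with Gzmk-negative cells) and for the interaction in CD8αα cells (-0.11 with Gzmk-negative cells). In the settings with Gzmk-negative or Gzmk-positive cells only the CD8αβ side was cleaned, so the sides of those class comparisons were not treated alike. The values of Syk and Tyrobp with both sides cleaned, over all cleaned CD8αβ cells, are given above. Syk rests on few UMIs in the T cell classes, and each diet comparison has 2 samples a group.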
